A study of Mus musculus with 29 samples.

Results

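Alveolar septa, the thin walls between the air spaces of the lung, were compared between the fetal lung and the nearly mature lung of the mouse around weaning. The comparison took 9 of the 29 libraries of the series, chosen by the age in their labels and not by any measured value. The fetal group held 4 wild-type C57BL/6 embryos, 2 at embryonic day 16.5 (libraries E16.5-9 and E16.5-2, early canalicular stage) and 2 at E18.5 (E18.5-4 and E18.5-3, early saccular stage). The P19-P28 group held 5 wild-type C57BL/6 animals of the alveolar stage, 2 at postnatal day 19 (P19d and P19f), 2 at P23 (P23e and P23f) and 1 at P28 (P28c). No animal was treated or carried an altered gene. Septa were cut from frozen sections with a laser, with large vessels and bronchi avoided, and the RNA of each animal, depleted of ribosomal RNA, was sequenced separately. Values are FPKM, fragments per kilobase of transcript, scaled to the mapped fragments of the library, and the values of the fetal and of the P19-P28 libraries are given below in the order of the names above.

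At the canalicular and saccular stages the septa are thick, cellular and growing, the future air spaces are filled with liquid, and the epithelium is only beginning to form flat alveolar type 1 cells and surfactant-making type 2 cells. By weaning, secondary septa have divided the saccules into alveoli, a double capillary layer has become a single one, most cells have left the cell cycle and the walls face inhaled air, microbes and chemicals. Imprinted genes, expressed from 1 parental copy, drive much of fetal growth and are shut down together in many organs after birth.

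Totals of FPKM over all genes ran from 346484 to 443814 in the 9 libraries, and 10114 to 12896 genes reached an FPKM of 1. The P19 libraries stood apart: of 8623 coding genes whose median over the whole series was 5 FPKM or more, 578 were listed at 0 in P19d and 242 in P19f, against 5 to 75 in the other 7. An exact 0 can therefore be a failed estimate, read depth is unknown, and counts are given with and without P19d and P19f. Pearson's r on log2(FPKM + 1) was 0.894 to 0.953 between fetal libraries (6 pairs), 0.855 to 0.962 between P19-P28 libraries (10 pairs) and 0.774 to 0.918 between the groups (20 pairs). Sex-linked genes went against the labelled sex in 2 of the 9 libraries, both of E18.5, and the comparison does not use sex. Capture or sequencing batches are not given in the sources used here, so a batch that followed age cannot be told apart from age. In pooled tissue, fewer cells of a type and less RNA per cell cannot be told apart either.

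The question was which genes were switched off or on over the whole course. Of 13515 genes that reached 1 FPKM in 3 or more of the 9 libraries, 1174 (8.69%) were higher and 1483 (11.0%) lower in P19-P28 septa, by limma on log2(FPKM + 1) with a Benjamini-Hochberg adjusted p under 0.05. These shares are the background for every list below, and log2 differences are P19-P28 minus fetal on that scale. The groups did not overlap in 986 of the higher and 1229 of the lower genes. These counts were taken among called genes only, from the same values as the calls, and are no separate support for them. A difference of at least 2 on the log2 scale was reached by 287 higher and 501 lower genes, and one of at least 4 by 15 and 42. Without P19d and P19f, 1011 genes (7.61%) were higher and 1151 (8.66%) lower, among them 824 and 979 of those above. With the E18.5 animals alone as the fetal group, 450 (3.5%) were higher and 303 (2.36%) lower, of which 437 and 258 were in the full comparison. Leaving out E16.5-9 gave 735 higher and 769 lower genes, and leaving out E16.5-2 gave 877 and 897. The median difference over all genes tested was -0.195. Quantile normalization moved it to -0.01 and the share of higher genes among the calls from 44.2% to 54.3%, so small differences in either direction depend on the scaling.

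**Figure D1:**
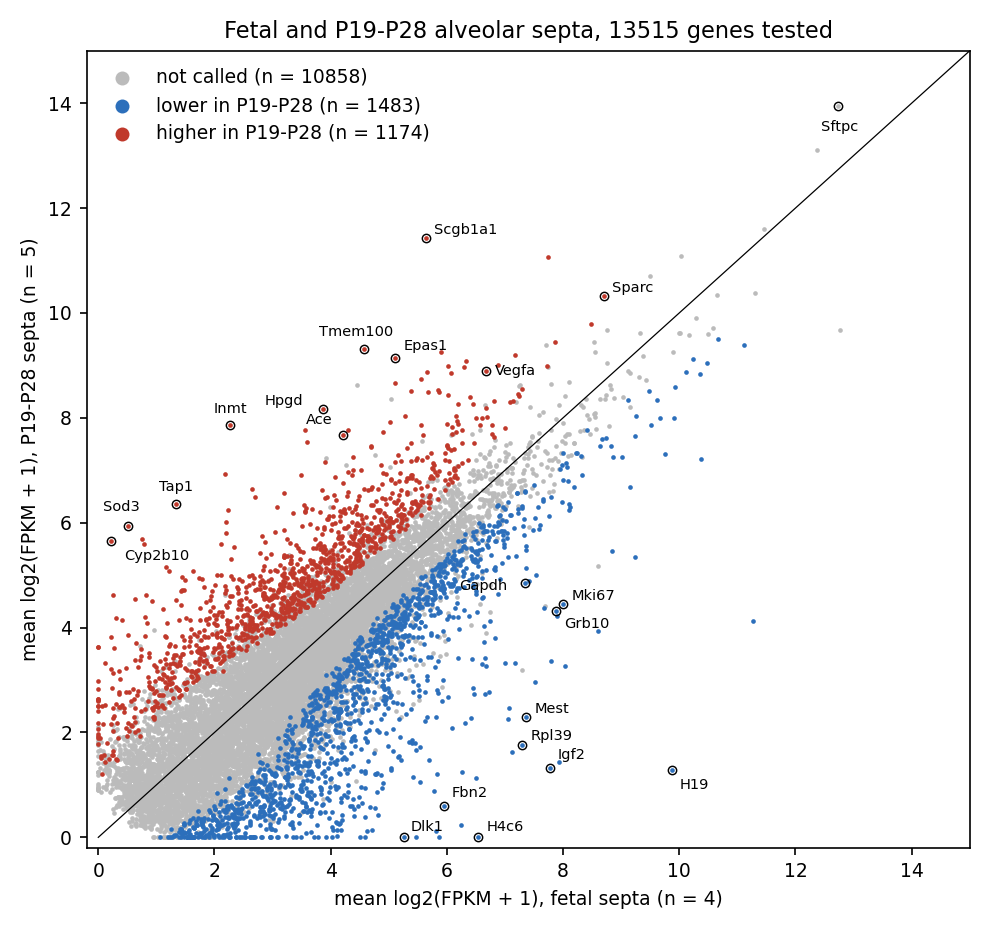
Mean log2(FPKM + 1) of each of the 13515 genes tested in fetal septa (x axis, n = 4) and P19-P28 septa (y axis, n = 5), with called genes in color, named examples circled and the line of equal levels. Points on the bottom edge, such as Dlk1 and H4c6, are genes listed at 0 in all 5 P19-P28 libraries, and genes such as Sod3 and Cyp2b10 lie at the left edge.

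Switched off was taken as an FPKM of at least 5 in all 4 fetal libraries and below 1 in all 5 P19-P28 libraries, and 16 genes met it. They were the imprinted genes Dlk1, Zim1 and Rtl1, then Nrk, Agtr2, Klhl4, Col25a1 and Egln3, of varied function. A further 7 were histone genes (H4c6, H2bc7, H2bc8, H4c3, H3c1, H2bc13 and H2bc22), and the last was Reg3g, which encodes an antibacterial lectin. Dlk1, an imprinted inhibitor of fat cell formation, read 21.3, 51.1, 36.5 and 49.4 FPKM in the fetal libraries and was listed at 0 in all 5 P19-P28 libraries (limma, adjusted p = 1.7e-05). Agtr2, the fetal receptor of angiotensin II, read 31.5, 26.1, 6.36 and 12.5 FPKM and then 0, 0, 0, 0.65 and 0. The E16.5 animals held the most, and 4 of the 5 later libraries were listed at 0. Egln3, an oxygen-sensing prolyl hydroxylase, read 10.2, 12.7, 21.7 and 19.0 FPKM and was listed at 0 in all 5 later libraries. Col25a1, a membrane collagen, read 14.0, 13.02, 23.3 and 16.3 and then 0, 0, 0.128, 0 and 0, and Nrk, a kinase gene of the X chromosome, 28.6, 30.2, 11.7 and 8.79 and then 0.432, 0.531, 0.175, 0.249 and 0. Without P19d and P19f the same 16 genes and 7 more met the rule, among them Ccnb1, a cyclin of mitosis, Hapln1, a link protein of hyaluronan, and Sox9, a transcription factor of the branching tips. Leaving out E18.5-3 gave 25 genes and leaving out P28c gave 27, since with fewer libraries the rule can only add genes.

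Switched on, the reverse rule, held for 4 genes, for 13 without P19d and P19f, and for 7 or 8 without E16.5-2, E18.5-3, P19d or P19f alone. Cyp2b10, a drug-metabolizing cytochrome P450, read 0, 0, 0.334 and 0.408 FPKM in the fetal libraries and 29.4, 27.1, 68.2, 105 and 48.5 in the P19-P28 libraries (limma, adjusted p = 2.6e-05). Itih4, a protease inhibitor family member, read 0.594, 0, 0.985 and 0 and then 9.50, 13.9, 20.5, 19.9 and 22.8 FPKM. Slc6a2, the noradrenaline transporter, read 0.246, 0.494, 0.35 and 0.604 and then 15.7, 18.9, 12.1, 14.7 and 8.21, and Gimap3, a GTPase of lymphocytes, 0.373, 0, 0 and 0 and then 6.12, 13.3, 12.1, 6.81 and 8.53. By the rule itself, no fetal library reached 1 FPKM for any of the 4. The 9 genes added without the P19 libraries include C4b of the complement system, the macrophage gene Chil3 and Pou5f1, a stem cell transcription factor gene.

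**Figure D2:**
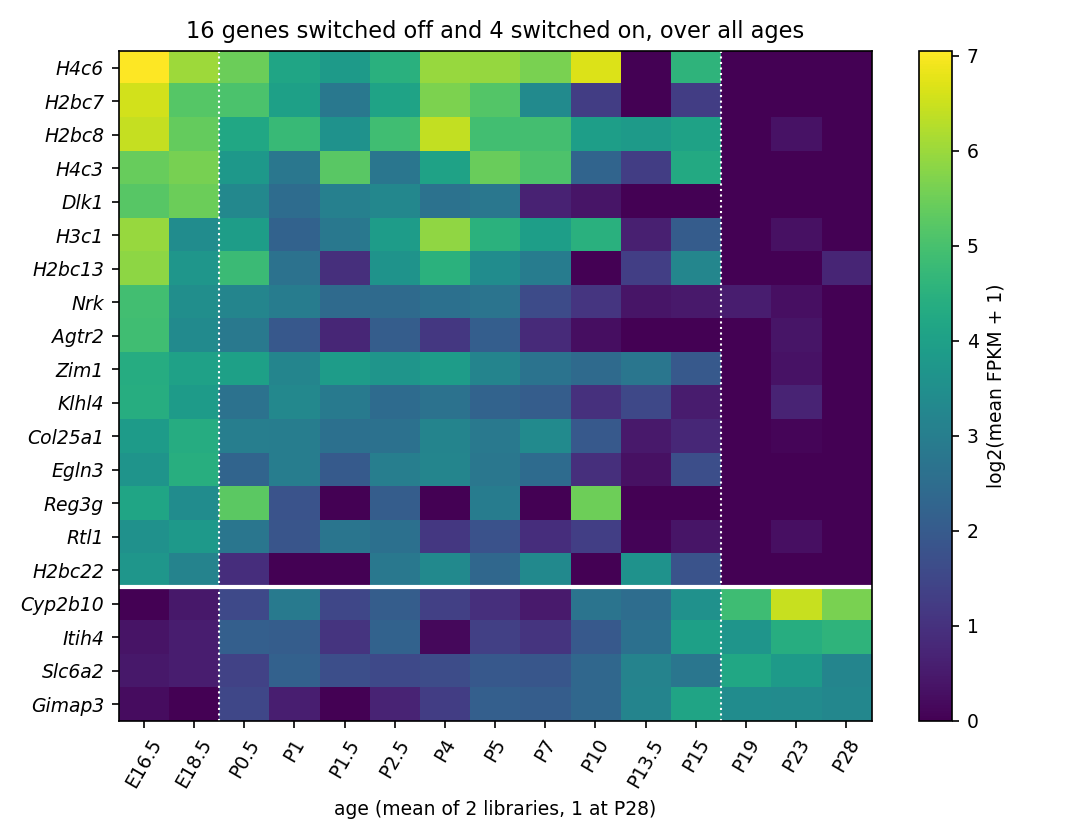
Color gives log2(mean FPKM + 1) of the 16 genes switched off (above the white line) and the 4 switched on (below it) at each of the 15 ages, with 2 libraries an age and 1 at P28; dotted lines bound the fetal and P19-P28 groups that chose the genes. Dlk1 was at or below 0.597 FPKM in the mean of each age from P7, the histone gene H4c6 was listed at 0 at P13.5 and read 22.8 FPKM at P15, and Cyp2b10 read 28.2 FPKM at P19 and 86.7 at P23.

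Most imprinted growth genes fell. Of 19 tested, 16 were lower and none higher, 16 and 0 also without P19d and P19f, and 10 and 0 against E18.5 alone, with a median difference of -2.78. H19, a long noncoding RNA of the Igf2 locus, read 2195, 1986, 337 and 518 FPKM in the fetal libraries and 3.64, 3.99, 0.293, 0.155 and 1.52 in the P19-P28 libraries (log2 difference -8.58, standard error 0.63, adjusted p = 2.1e-05; limma). Igf2, the fetal insulin-like growth factor, read 419, 594, 64.7 and 138 and then 0.0397, 3.04, 3.31, 3.11 and 0.347 FPKM (log2 difference -6.44, standard error 0.66, adjusted p = 1.5e-04; limma). Both had their highest values at E16.5, and in neither did the groups overlap. Rian and Meg3, noncoding RNAs from the same imprinted cluster as Dlk1, differed by -5.49 and -2.56, and Mest, an enzyme gene expressed from the paternal copy, read 223, 161, 132 and 152 and then 0, 14.5, 4.95, 5.13 and 4.01 FPKM. Grb10, an adaptor that restrains insulin receptor signaling, read 347, 369.9, 149 and 154 and then 16.2, 16.1, 22.6, 23.1 and 17.5 FPKM. The decrease took in genes that promote growth and genes that restrain it: Igf2r, the receptor that removes Igf2, fell by 2.53 on the log2 scale, Cdkn1c, a brake on the cell cycle, by 2.22, and Plagl1, a zinc finger regulator of the network, fell by 2.78.

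Of 15 genes of the insulin-like growth factor axis, 3 were higher and 4 lower. The ligand genes Igf1 and Igf2 were both lower. Igf1, the growth factor of postnatal life, read 106, 61.2, 37.9 and 41.4 FPKM in the fetal and 23.7, 4.84, 2.95, 7.50 and 23.0 in the P19-P28 libraries (log2 difference -2.48, standard error 0.55, adjusted p = 0.0104; limma), so that all 5 later libraries lay below all 4 fetal ones. The binding protein genes Igfbp7 and Igfbp6 rose by 2.77 and 1.86, and the receptor genes Igf1r and Insr did not pass the test. The RNA-binding genes Igf2bp1, Igf2bp2 and Igf2bp3, which stabilize growth factor messages in the fetus, all fell, Igf2bp3 from 26.2, 30.4, 19.2 and 20.7 to 0.569, 6.09, 3.05, 3.21 and 1.90 FPKM. Hmga2, an architectural chromatin protein of fetal tissue, read 5.76, 3.55, 2.02 and 3.70 and then 0, 0, 0, 0.186 and 0 FPKM. Arid3b, on the same list of 9, went the other way, with a log2 difference of 1.50 (adjusted p = 0.0104, limma).

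Genes of cell division were lower almost without exception. Of 30 mitosis genes tested, 29 were lower and none higher (28 and 0 without P19d and P19f, 11 and 0 against E18.5 alone), with a median difference of -3.15. Cdk1, the kinase that drives entry into mitosis, read 29.8, 39.6, 12.0 and 11.1 FPKM in the fetal and 0, 0, 0.425, 0.513 and 2.02 in the P19-P28 libraries (log2 difference -3.85, standard error 0.50, adjusted p = 6.3e-04; limma). Mki67, the proliferation marker Ki-67, read 377, 386, 162 and 183 and then 15.4, 27.5, 9.13, 11.3 and 82.3 FPKM. Ccna2, a cyclin partner of Cdk1 in early mitosis, read 117, 95.9, 28.1 and 30.3 and then 0, 1.18, 1.03, 2.76 and 2.94. The E16.5 libraries held the highest levels of all 3 genes and P28c the highest among the later ones. Kif11, a spindle motor, and Top2a, a topoisomerase that untangles chromosomes, fell by 3.66 and 3.92. Ube2c was the 1 member that did not pass, with values of 0 to 8.22 and 0 to 1.61 FPKM.

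The promoters of 3 of these genes are shown because they hold the letters of the cell cycle elements for which such genes are known. They are RefSeq windows of 300 bases, 250 before and 50 after the start, in GRCm38.p6, written from 5′ to 3′ on the strand of the gene, and capitals mark TTTGAA (the core of the cell cycle genes homology region, CHR), CCAAT and, in Cdk1, an E2F match, each on either strand. Cdk1 lies at chr10:69352863-69353162, minus strand, Ccnb2, a B cyclin gene, at chr9:70421505-70421804, minus strand, and Kif11 at chr19:37376132-37376431, plus strand.
Cdk1: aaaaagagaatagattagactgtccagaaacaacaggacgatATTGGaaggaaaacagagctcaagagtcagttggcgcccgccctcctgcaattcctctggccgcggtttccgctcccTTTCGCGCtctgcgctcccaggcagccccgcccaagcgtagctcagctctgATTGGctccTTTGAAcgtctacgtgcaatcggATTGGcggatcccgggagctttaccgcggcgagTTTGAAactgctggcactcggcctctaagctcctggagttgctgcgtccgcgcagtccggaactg
Ccnb2: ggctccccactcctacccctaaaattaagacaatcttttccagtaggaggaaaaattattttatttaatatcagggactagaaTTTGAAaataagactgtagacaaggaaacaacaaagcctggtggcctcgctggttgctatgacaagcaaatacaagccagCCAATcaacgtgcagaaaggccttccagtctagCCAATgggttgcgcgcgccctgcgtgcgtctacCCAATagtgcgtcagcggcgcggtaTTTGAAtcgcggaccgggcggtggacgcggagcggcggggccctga
Kif11: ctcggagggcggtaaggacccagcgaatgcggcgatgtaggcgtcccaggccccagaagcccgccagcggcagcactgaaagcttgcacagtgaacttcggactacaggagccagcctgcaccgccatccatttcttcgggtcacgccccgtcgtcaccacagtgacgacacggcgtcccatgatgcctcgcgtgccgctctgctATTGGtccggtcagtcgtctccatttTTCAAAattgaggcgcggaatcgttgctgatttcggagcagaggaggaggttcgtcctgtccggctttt

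In Cdk1 the TTTGAA matches began at bases -71 and -15 from the start, with an inverted CCAAT at -80, -48 and -208 and the E2F match TTTCGCGC at -131. Those of Ccnb2 lay at -167 and 5, with CCAAT at -87, -54 and -21, and in Kif11 both were inverted, TTCAAA at -19 and ATTGG at -45. Of the 25 mitosis genes with a promoter in the table, 19 (76.0%) held TTTGAA and 19 held CCAAT, against 18.1% and 37.9% of all 27025 promoters of the same length and 12.3% and 38.2% of the 10680 among genes tested. An E2F match (TTTCCCGC, TTTCGCGC, TTTGCCGC or TTTGGCGC on either strand, none of which contains TTTGAA) stood in 1 of the 25 (4.0%), against 2.32% of all promoters and 4.15% of those of genes tested. In the DNA replication list, of 24 promoters, TTTGAA stood in 16.7% and an E2F match in 41.7%. Among all genes lower in P19-P28 septa 17.7% of promoters held TTTGAA and 6.28% an E2F match, and among those higher 10.1% and 2.68%. A match is only a description of the letters in the window.

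DNA replication genes were lower less firmly. Of 30 tested, 13 were lower and none higher, with a median of -1.66, but 3 were lower without P19d and P19f, 2 without either E16.5 library, 5 to 7 without P19f, P23e or P23f alone, and 0 by limma against E18.5 alone, where 2 had an unadjusted p under 0.05. Rrm1, a subunit of the enzyme that makes deoxynucleotides, read 59.5, 55.1, 18.7 and 22.2 and then 7.20, 9.09, 3.08, 9.26 and 11.6 FPKM (log2 difference -2.06, standard error 0.43, adjusted p = 0.0074; limma). Rfc4, a clamp loader subunit, read 23.9, 25.2, 13.4 and 5.55 and then 0, 0, 0, 2.65 and 2.23. Pcna, the sliding clamp itself, read 179, 216, 52.4 and 33.6 and then 8.60, 53.6, 26.3, 26.4 and 48.1, overlapped between the groups and missed the test (adjusted p = 0.0731, limma).

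Replication-dependent histone genes, a list chosen after the values were seen, were lower in 45 of 52 tested and higher in none (41 and 0 without P19d and P19f, 11 and 0 against E18.5 alone), with a median of -3.84. H4c6 read 139, 125, 58.8 and 69.5 FPKM in the fetal libraries and was listed at 0 in all 5 later ones, and H3c2 read 428, 526, 172 and 91.8 and then 0, 0, 15.5, 7.97 and 0. H3c6 and H3c4 differed by -6.01 and -5.36. These messages are short, and short transcripts were listed at 0 more often in the P19 libraries. Of 117 coding genes other than histones with a longest transcript of at most 700 bases, 53.0% were at 0 in P19d, 35.9% in P19f, 13.7% to 21.4% in P23e, P23f and P28c and 5.98% to 29.9% in the fetal libraries, and 10.3% were lower, against 27.3% with histones included. The part of transcript length in the histone result was not tested.

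Ribosomal protein genes were lower in 15 and higher in 1 of 28 listed (9 and 1 without P19d and P19f), and in 35 and 1 of all 80 tested, a wider set taken after the values were seen (29 and 1 under quantile or median ratio scaling, 21 and 1 without P19d and P19f). The count of 15 fell to between 6 and 8 when P19d, P23e, P23f, E16.5-9, E16.5-2 or E18.5-4 was left out. Rplp0, of the ribosomal stalk, read 242, 327, 344 and 208 and then 46.7, 54.4, 86.3, 88.1 and 120.0 FPKM (log2 difference -1.86, standard error 0.29, adjusted p = 0.00161; limma). Rpl39, whose message is among the shortest, read 187, 182, 259 and 67.6 and then 0, 0, 12.2, 34.0 and 0. The exception Rpl37 read 92.8, 58.4, 137 and 148 and then 279, 186, 215, 214 and 489, higher in all 5. Many ribosomal protein genes have near-identical pseudogenes between which reads could be split, so single members are uncertain.

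Chromatin genes moved in both directions, with 8 of 22 lower and 3 higher (5 lower without P19f, E16.5-9 or E16.5-2). Against E18.5 alone 2 were lower and 0 higher, and the calls of Ezh2, Suz12, Cbx7, Lmnb1 and Lmna were not kept. Ezh2 and Suz12, subunits of the Polycomb complex that methylates histone H3, fell by 1.81 and 1.41, Ezh2 from 54.3, 44.7, 35.0 and 33.2 to 17.4, 15.2, 7.69, 5.18 and 14.7 FPKM. Cbx7, a Polycomb reader, rose by 2.03. Lmnb1, a lamin of dividing cells, fell from 136, 125, 23.0 and 42.1 to 14.7, 7.80, 7.87, 17.1 and 21.1 FPKM. Lmna, the lamin of stiff and differentiated tissue, read 25.9, 32.1, 16.0 and 27.5 and then 39.2, 57.0, 35.8, 37.4 and 53.7 (log2 difference 0.81, standard error 0.24, adjusted p = 0.0387; limma), a call not kept without P19d and P19f. Uhrf1 and Hells, which maintain DNA methylation through replication, fell by 2.41 and 2.51 on the log2 scale, and also lost their calls without P19d and P19f. Cdkn1a, the p21 brake on the cell cycle, rose by 1.82 (not called without P19d and P19f) while Cdkn1c fell, and of the D cyclin genes neither Ccnd2 nor Ccnd3 passed (log2 differences -0.38 and 0.36).

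**Figure D3:**
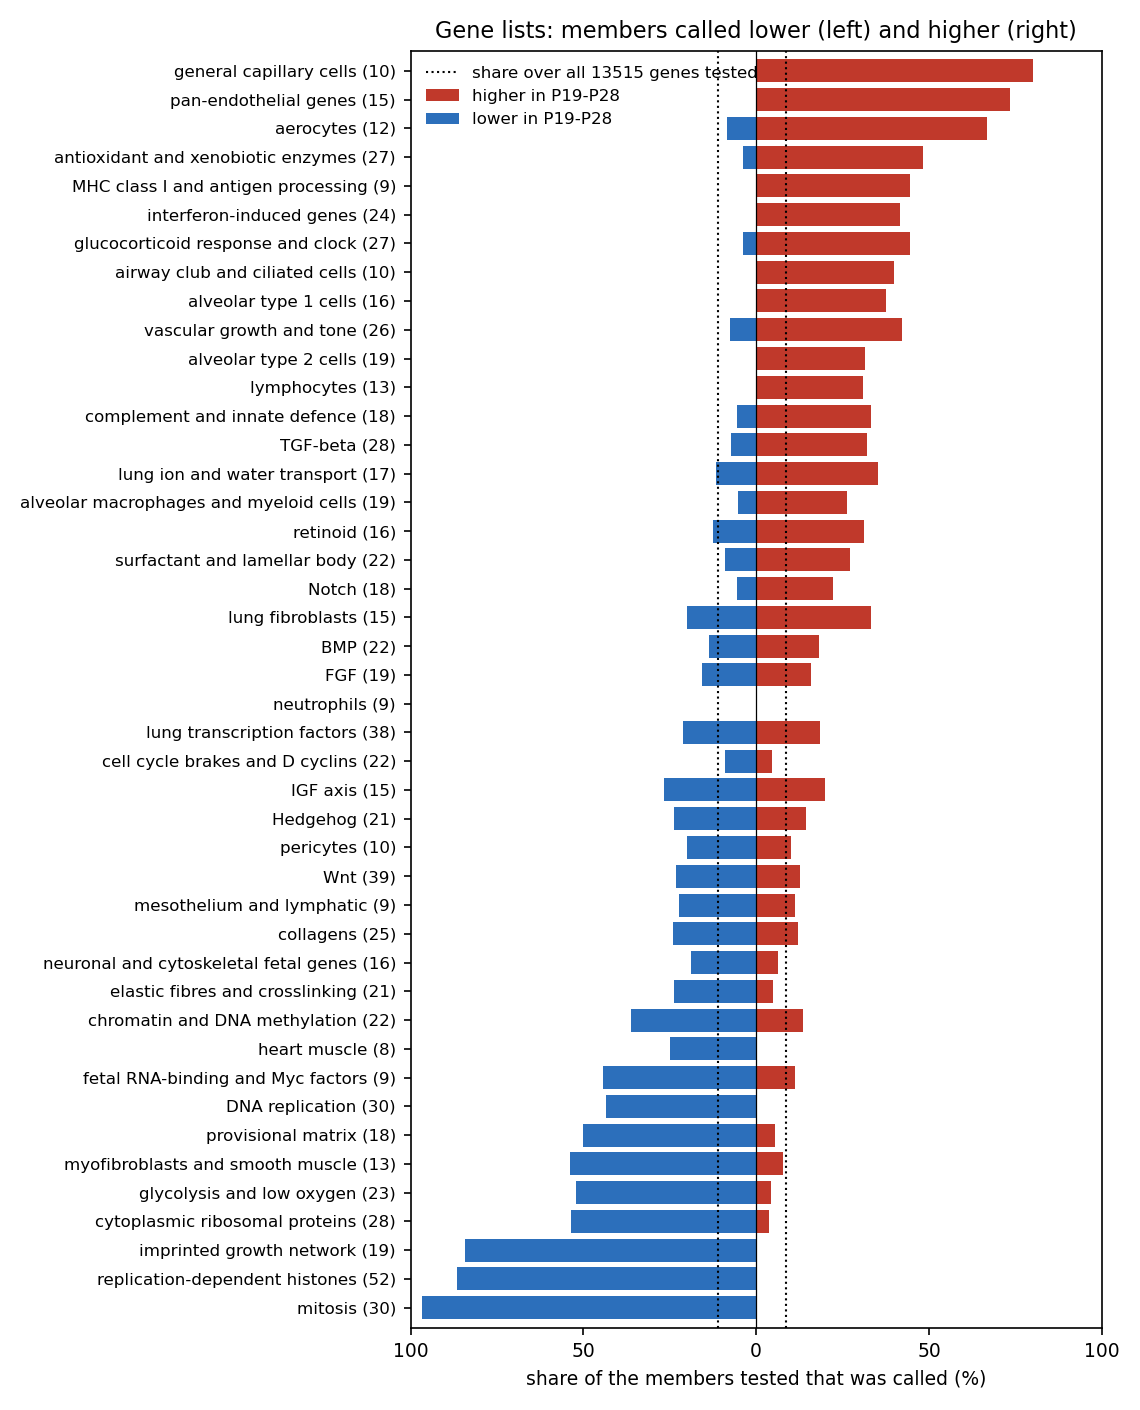
Bars give, for gene lists with at least 8 members tested, the percentage of those members that was lower (blue, to the left) or higher (red, to the right) in P19-P28 septa, with the number tested in parentheses and dotted lines at the shares over all 13515 genes, 11.0% lower and 8.69% higher. Mitosis, histone and imprinted genes form the lower end and capillary, pan-endothelial and aerocyte genes the upper end.

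Of 18 genes of provisional matrix, 9 were lower and 1 higher, the same numbers as without P19d and P19f, and 7 were lower against E18.5 alone. Their summed level was 1187 to 1500 FPKM in the fetal and 1476 to 2027 in the later libraries. Fbn2, the fetal fibrillin of elastic fibers, read 122, 137, 28.8 and 27.7 FPKM and then 0, 0.809, 0.231, 0.833 and 1.00 (log2 difference -5.34, standard error 0.53, adjusted p = 1.3e-04; limma), while Fbn1, the fibrillin that remains in the adult, fell by 0.87, from 104, 102, 129 and 110.2 to 58.7, 62.2, 47.5, 59.9 and 76.8 FPKM. Vcan and Hapln1, a proteoglycan and the link protein that hold hyaluronan gels together, fell by 3.61 and 3.92. Nid2, a basement membrane linker, read 33.9, 43.3, 33.5 and 36.2 and then 3.70, 5.17, 3.66, 6.03 and 6.14, and Tnc, tenascin C, fell by 1.92. Sparc, a collagen-binding matricellular protein, went against the list, from 507, 412, 323 and 446 to 1609, 1502, 1172, 1193 and 987 FPKM (log2 difference 1.61, standard error 0.28, adjusted p = 0.00328; limma).

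Of 25 collagen genes, 6 were lower and 3 higher (2 or 3 lower without E16.5-9 or E16.5-2, and 1 lower and 0 higher against E18.5 alone), and all 3 increases were chains of type IV collagen, the net of basement membranes. Col4a4 rose by 1.60, Col4a2 by 1.26 and Col4a3 by 2.15 on the log2 scale, none of them called against E18.5 alone and the last not without P19d and P19f. Col4a3 read 1.80, 3.43, 23.2 and 22.9 and then 28.7, 34.1, 40.8, 46.8 and 52.7 FPKM, with the values of E18.5 just below the later ones. Col14a1, a fibril-associated collagen, read 50.5, 43.9, 52.5 and 50.5 and then 5.49, 6.89, 4.92, 7.39 and 16.0. Elastin itself (Eln) did not pass, with 110.0, 114, 199 and 312 and then 236, 223, 108, 91.9 and 141 FPKM and a difference of -0.16 (standard error 0.37), but Lox, which crosslinks elastin and collagen, fell from 130.0, 123, 257 and 197 to 14.9, 30.1, 48.8, 39.7 and 21.5 FPKM (log2 difference -2.52, standard error 0.34, adjusted p = 7.6e-04; limma).

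Glycolysis and low-oxygen genes were lower in 12 of 23 and higher in 1 (10 and 1 without P19d and P19f, 6 and 1 against E18.5 alone), with a median of -1.50. Slc2a1, the glucose transporter of many fetal cells, read 34.8, 32.4, 22.1 and 30.2 and then 4.30, 5.08, 5.67, 4.72 and 5.87 FPKM (log2 difference -2.32, standard error 0.25, adjusted p = 1.9e-04; limma). Gapdh, a glycolytic enzyme often taken as a constant reference, read 288, 224, 101 and 106 and then 26.4, 16.6, 26.0, 36.3 and 39.3, with no overlap (log2 difference -2.51, standard error 0.35, adjusted p = 8.7e-04; limma). Tpi1 fell by 3.04 and Ldha, lactate dehydrogenase A, by 1.72. Vegfa, the vascular growth factor that low oxygen induces in many tissues, was the exception and read 45.7, 56.9, 146 and 278 and then 448, 536, 466, 436 and 498 (log2 difference 2.22, standard error 0.44, adjusted p = 0.00618; limma). Epas1, the gene of the hypoxia-inducible factor HIF-2alpha, was also among the largest increases, from 16.5, 28.7, 41.3 and 63.8 to 579.7, 611, 734, 555 and 382 FPKM (log2 difference 4.02, standard error 0.34, adjusted p = 5.0e-05; limma), whereas Hif3a fell from 50.7, 33.6, 50.1 and 68.9 to 4.59, 3.09, 8.33, 7.75 and 0.538.

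The 12 largest increases with no overlap between the groups, predicted genes left aside, were of several kinds. Sod3, extracellular superoxide dismutase, read 0.525, 0, 0 and 1.73 FPKM in the fetal libraries and 39.5, 73.8, 54.0, 58.6 and 86.4 in the later ones (log2 difference 5.42, standard error 0.37, adjusted p = 1.7e-05; limma). Inmt, a methyltransferase of lung fibroblasts, read 0, 0, 43.5 and 11.0 and then 136, 208, 311, 314 and 236. Hpgd, which degrades prostaglandins in the lung, read 8.78, 16.6, 16.6 and 14.2 and then 313, 268, 268, 432 and 196 (log2 difference 4.29, standard error 0.26, adjusted p = 6.8e-06; limma). Tmem100, an endothelial membrane protein downstream of BMP9 and BMP10, read 13.6, 12.1, 44.5 and 36.5 and then 659, 544, 706, 719.9 and 582. Klf14, a Krüppel-like factor gene, rose by 4.80, Prelp, a leucine-rich proteoglycan of connective tissue, by 4.01, and Mroh2b, whose product is little described, by 4.74.

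**Figure D4:**
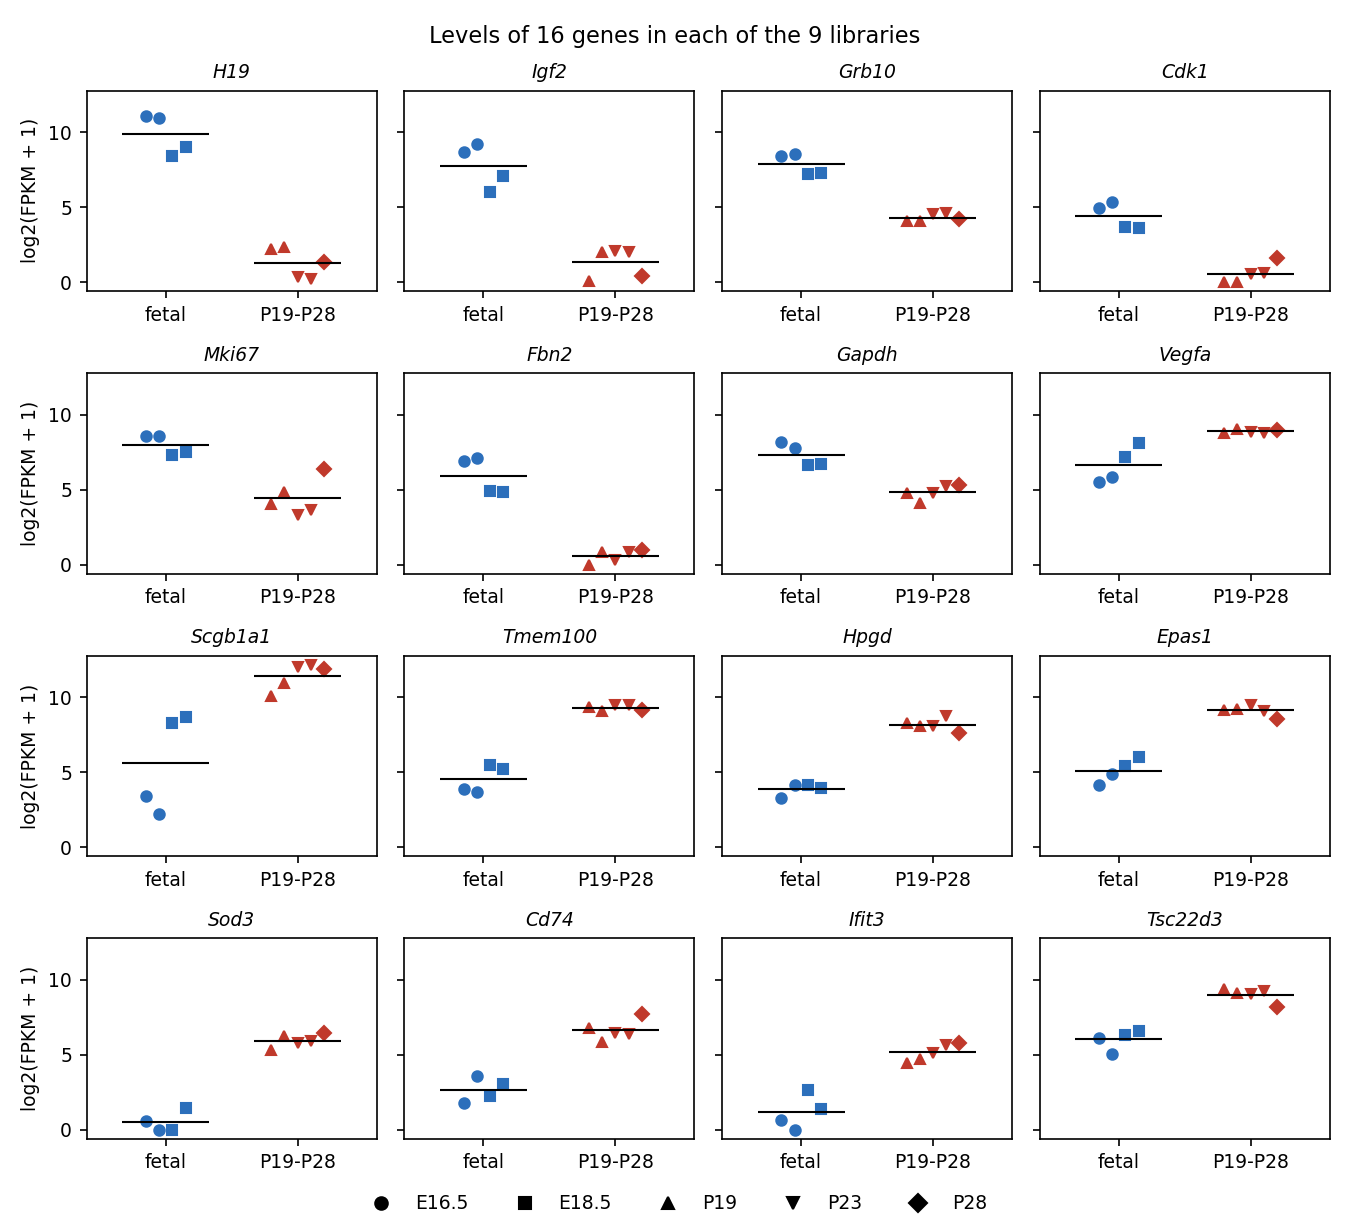
Log2(FPKM + 1) of 16 genes in each of the 9 libraries (blue, fetal; red, P19-P28; shape gives the age; bars are group means). In all 16 the groups do not overlap, which was a condition of choice for H19, Igf2, Fbn2, Scgb1a1, Tmem100, Hpgd, Epas1 and Sod3. The E16.5 and E18.5 animals lie well apart for H19, Cdk1, Fbn2, Vegfa and Scgb1a1.

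Most endothelial genes rose. Of 15 pan-endothelial genes 11 were higher and none lower, of 10 genes of general capillary cells 8 and 0, and of 12 genes of aerocytes, the large flat capillary cells of the gas exchange surface, 8 and 1. Without P19d and P19f the counts were 11, 7 and 6 higher, and against E18.5 alone 8, 6 and 4. The aerocyte count was 5 without P23e, E16.5-9 or E16.5-2. Some higher genes are counted in several lists. Emp2 and Car4 of the aerocyte list also stand with type 1 and myeloid genes, and Lyve1 of the capillary list with lymphatic genes. The summed level of the pan-endothelial list was 510 to 1263 FPKM in the fetal and 2357 to 3185 in the later libraries. Plvap, the protein of fenestral and caveolar diaphragms, read 5.87, 15.7, 8.84 and 12.9 and then 160.1, 95.4, 108, 114 and 127 FPKM (log2 difference 3.42, standard error 0.27, adjusted p = 3.3e-05; limma). Sema3c, a guidance ligand, read 25.5, 23.4, 27.8 and 23.5 and then 177, 143, 197, 178 and 169 (log2 difference 2.73, standard error 0.17, adjusted p = 6.8e-06; limma), with little spread in either group. Ptprb, a phosphatase that restrains the receptor Tek, and Tek itself rose by 3.12 and 2.05.

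Among aerocyte genes Car4, a membrane carbonic anhydrase, read 2.21, 1.58, 20.9 and 27.0 and then 68.8, 92.7, 71.1, 62.8 and 103 FPKM (log2 difference 3.23, standard error 0.65, adjusted p = 0.00607; limma), and Apln, the ligand apelin, rose by 2.15. Ednrb, an endothelin receptor, went the other way and fell by 0.80, from 105, 114, 90.0 and 90.6 to 58.6, 47.6, 58.4, 68.7 and 51.2 FPKM. Of 26 genes of vascular growth and tone 11 were higher and 2 lower. Ace, the converting enzyme of angiotensin that lines lung capillaries, read 7.42, 6.25, 45.4 and 41.5 and then 197, 217, 240.1, 269 and 129 (log2 difference 3.46, standard error 0.54, adjusted p = 0.00165; limma). Adrb1, the beta1 adrenergic receptor, read 0.95, 0.169, 3.26 and 4.54 and then 27.7, 31.3, 33.4, 28.5 and 30.8.

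Most calls among epithelial genes rested on the E16.5 animals. Of 16 genes of type 1 cells 6 were higher and none lower, but 3 without P19d and P19f and 2 against E18.5 alone, where 1 was lower. Without either E16.5 library 3 were higher, and against E16.5 alone, where 8.02% of all genes were higher, 13 were. Aqp5, the water channel of type 1 cells, read 0.539, 0.287, 8.15 and 23.4 and then 68.6, 70.5, 46.0, 65.6 and 69.0 FPKM (log2 difference 3.81, standard error 0.73, adjusted p = 0.0049; limma). Ager, the receptor that marks type 1 cells, read 20.9, 24.3, 238 and 283 and then 708, 501, 306, 470.4 and 611, with more of its log2 difference between E16.5 and E18.5 than after, and its call was not kept without P19d and P19f. Hopx did not pass and overlapped, with 40.6, 30.9, 104 and 102 and then 42.8, 98.2, 103, 117 and 98.5.

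Of 19 genes of type 2 cells 6 were higher and none lower, and 2 without P19d and P19f. The count was 0 to 3 when any 1 library other than those of E18.5 was left out, 0 of them without either E16.5 library (limma, 6 at an unadjusted p under 0.05) and 0 against E18.5 alone (3 unadjusted). Sftpc, surfactant protein C, was already high, with 5242, 2066, 12372 and 15834 and then 13876, 11277, 14722, 19815 and 21034 FPKM, and its difference of 1.21 had a standard error of 1.12. Lyz2, a lysozyme of type 2 cells and macrophages, read 67.0, 48.4, 1243 and 501 and then 1580.5, 1523, 2452, 2818 and 2669 (log2 difference 3.32, standard error 0.82, adjusted p = 0.0166; limma). Of the desaturase genes, Scd1 read 8.52, 7.97, 309.8 and 245 and then 349.7, 379, 472, 390.1 and 927, and Scd2, its fetal relative, 229.9, 193, 321 and 379 and then 129.8, 91.9, 122, 125 and 90.2 FPKM (log2 difference -1.29, standard error 0.24, adjusted p = 0.00417; limma). The call of Scd1 was lost when any 1 P19-P28 or E16.5 library was left out, against E18.5 alone, with a pseudocount of 0.1 and with no filter.

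Markers of airway, heart and mesothelium were also measured. Whether they came from such tissue in the cuts or from cells of the septa was not tested. Scgb1a1, the secretoglobin of club cells, which line airways, read 9.46, 3.62, 307 and 416 FPKM and then 1094, 1953, 4151, 4665 and 3899.5, the largest log2 increase of all (log2 difference 5.79, standard error 1.20, adjusted p = 0.00737; limma). Of 10 airway genes tested 4 were higher and none lower, with a median difference of 0.08, and their list summed to 237 to 1501 FPKM in the fetal and 1578 to 5556 in the later libraries, most of it from Scgb1a1 in the latter. Scgb3a2, another airway secretoglobin, read 148, 283, 869 and 619 and then 0, 47.2, 70.4, 167 and 108 and missed the test (log2 difference -3.42 (adjusted p = 0.0737), limma). Heart muscle genes summed to 50.9 to 2657 FPKM in the fetal and 25.1 to 148 in the later libraries. Actc1, cardiac actin, read 757, 1377, 24.0 and 65.0 and then 28.2, 18.4, 13.6, 25.9 and 16.8, so the high values were those of the E16.5 animals, and its call was not kept without P19d and P19f. Msln, of mesothelium, read 9.99, 13.8, 84.0 and 91.4 and then 0, 2.89, 3.12, 0.784 and 9.24, high at E18.5. Of 9 mesothelial and lymphatic genes 2 were lower, Msln and the lymphatic gene Mmrn1, and 1 higher, and the list summed to 105 to 231 FPKM in the fetal and 118.5 to 333 in the later libraries. The part of airway, heart or mesothelial cells in any other result was not tested.

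Mesenchymal genes were divided. Of 15 fibroblast genes 5 were higher and 3 lower (3 higher without P19f, P23e, P23f or either E16.5 library), and of 13 myofibroblast and smooth muscle genes 1 was higher and 7 lower (0 and 5 without P19d and P19f, 4 lower without E16.5-9). Gsn, the actin-severing protein gelsolin, read 42.7, 38.1, 92.9 and 109.8 and then 309, 312, 375, 465 and 283 FPKM (log2 difference 2.41, standard error 0.32, adjusted p = 7.0e-04; limma), and Npnt, an integrin ligand of alveolar basement membrane, rose by 1.99. Meox2, a mesenchymal homeobox gene, and Tcf21, a transcription factor of lung mesenchyme, fell by 1.92 and 1.03. Acta2, smooth muscle actin, read 152, 187, 96.8 and 80.8 and then 30.7, 25.6, 27.0, 41.3 and 71.9, and Tgfbi, a matrix protein induced by TGF-beta, 50.1, 66.0, 70.6 and 120.4 and then 14.8, 10.3, 12.0, 13.8 and 26.3 (log2 difference -2.24, standard error 0.31, adjusted p = 7.9e-04; limma).

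Of 27 enzymes of detoxification and antioxidant defense, 13 were higher and 1 lower, the same numbers as without P19d and P19f, and 11 and 1 against E18.5 alone, with a median of 1.59. Besides Sod3 and Cyp2b10, Fmo1, a flavin monooxygenase, read 10.7, 9.83, 33.9 and 33.4 and then 205, 216, 213, 255 and 203 FPKM (log2 difference 3.47, standard error 0.36, adjusted p = 1.5e-04; limma). Cyp4b1, a lung cytochrome P450, read 3.48, 1.51, 21.3 and 6.15 and then 95.1, 83.6, 87.2, 101 and 80.1. Por, the reductase that feeds all microsomal P450 enzymes, rose by 2.03, Ephx1, which opens epoxides, by 3.36, and Prdx6, a peroxiredoxin that also handles surfactant lipid, by 2.12. Aox3, an aldehyde oxidase, went against the list, from 49.0, 48.9, 21.4 and 19.8 to 0, 1.43, 1.20, 1.59 and 5.30 FPKM.

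Of 24 interferon-induced genes 10 were higher and none lower (11 and 0 without P19d and P19f, 3 and 0 against E18.5 alone), with a median of 1.38. Ifit3, which binds viral RNA with its partners, read 0.539, 0, 5.19 and 1.65 and then 21.0, 25.5, 34.4, 50.2 and 55.2 FPKM (log2 difference 4.00, standard error 0.51, adjusted p = 5.5e-04; limma). Ly6a, the surface protein Sca-1, read 3.89, 6.66, 17.3 and 29.9 and then 96.5, 51.8, 518, 366 and 232. Tap1, a subunit of the pump that loads peptides for class I presentation, read 0.491, 17.4, 0 and 0.474 and then 46.9, 85.0, 66.7, 55.7 and 239.9, with P28c far above the rest.

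The promoters of Ifit3 (chr19:34583279-34583578, plus strand) and of the guanylate-binding protein gene Gbp3 (chr3:142559794-142560093, plus strand) are shown because they hold the letters of the interferon response element, taken as TTTC, any 2 bases and TTTC again on either strand, in capitals.
Ifit3: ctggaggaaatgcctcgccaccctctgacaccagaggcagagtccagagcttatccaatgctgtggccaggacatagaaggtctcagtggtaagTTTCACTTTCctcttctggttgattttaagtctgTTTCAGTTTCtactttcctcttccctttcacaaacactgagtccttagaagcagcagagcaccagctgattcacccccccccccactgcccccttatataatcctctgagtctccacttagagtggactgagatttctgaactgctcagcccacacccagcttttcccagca
Gbp3: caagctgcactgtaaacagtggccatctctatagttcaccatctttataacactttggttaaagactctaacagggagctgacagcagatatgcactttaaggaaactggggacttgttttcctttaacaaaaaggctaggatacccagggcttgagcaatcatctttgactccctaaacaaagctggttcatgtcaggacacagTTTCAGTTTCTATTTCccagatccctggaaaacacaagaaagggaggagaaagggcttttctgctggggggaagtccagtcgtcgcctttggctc

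The matches began at bases -156 and -122 in Ifit3 and at -45 and -39 in Gbp3, where they overlap by 4 letters. These letters stood in 11 (73.3%) of the 15 promoters of the interferon list, in 3.49% of all promoters, in 5.15% of those of higher genes and in 2.8% of those of lower genes.

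B cell genes were low in the fetus. Ms4a1, the CD20 antigen, read 0, 0, 0.805 and 0 and then 12.8, 16.4, 8.89, 5.59 and 3.31 FPKM. Cd79b, of the B cell receptor, read 1.47, 2.72, 4.86 and 2.12 and then 39.0, 7.25, 18.5, 12.8 and 19.6 (log2 difference 2.31, standard error 0.45, adjusted p = 0.00553; limma). Cd74, the chain that accompanies class II molecules, read 2.38, 10.8, 3.83 and 7.11 and then 112, 57.8, 86.9, 81.9 and 206 (log2 difference 3.99, standard error 0.41, adjusted p = 1.6e-04; limma). These and Cd79a were the 4 of 13 lymphocyte genes that passed in the full comparison, and none of them marks T cells. The repeat without P19d and P19f called 6 higher and 0 lower, so it also called members of the list outside these 4. Cd3g, of the T cell receptor complex, read 0, 47.8, 0 and 2.03 and then 0.175, 19.9, 3.02, 5.83 and 46.9, with its highest fetal value in E16.5-2. Cd2, an adhesion protein of T cells outside the list and among the largest increases, read 1.03, 0, 0 and 0 and then 11.1, 39.5, 22.8, 11.0 and 62.6 (log2 difference 4.36, standard error 0.54, adjusted p = 4.6e-04; limma). Of 19 macrophage and myeloid genes 5 were higher, Car4 of the aerocyte list among them, and 1 lower. The numbers were 7 and 1 without P19d and P19f, and 1 and 0 against E18.5 alone. Between 1 and 3 were higher without P23e, P23f, P28c, E16.5-9, E16.5-2 or E18.5-3. Fabp4, a fatty acid carrier of capillaries and alveolar macrophages, was the 1 that fell, from 16.3, 16.3, 12.6 and 4.70 to 0, 0, 3.12, 2.80 and 0 FPKM. Neutrophil genes summed to 57.3 to 204 FPKM in the fetal and 45.2 to 548 in the later libraries. None of the 9 tested was called, and 2 were higher without P19d and P19f. Of 8 Gimap genes, a family chosen after Gimap3 was seen, 5 were higher (3 without E16.5-9).

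Of 27 genes of the glucocorticoid response and the circadian clock, 12 were higher and 1, Hif3a, lower (13 and 1 without P19d and P19f), with the hour of collection not given in the sources used here. Tsc22d3, the glucocorticoid-induced leucine zipper, read 69.2, 31.8, 80.0 and 96.1 and then 658, 547, 528, 609 and 287 FPKM (log2 difference 2.96, standard error 0.34, adjusted p = 3.1e-04; limma), and Dusp1, a phosphatase that ends MAP kinase signals, rose by 2.84. The clock output gene Dbp read 0.451, 0.917, 2.88 and 3.73 and then 17.4, 9.57, 46.9, 42.9 and 28.2, and the clock repressor Nr1d1 1.22, 0.0755, 1.53 and 0.527 and then 4.19, 10.6, 39.0, 25.9 and 32.5. Arntl, the clock activator that Nr1d1 represses, read 5.21, 6.72, 5.31 and 2.99 and then 0, 3.92, 0.821, 0.733 and 2.97 and missed the test (adjusted p = 0.0815, limma).

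Of 17 genes of ion and water transport, 6 were higher and 2 lower (4 and 1 without P19d and P19f). Scnn1a, of the sodium channel that absorbs liquid, read 2.49, 1.64, 24.4 and 29.04 and then 57.3, 50.6, 66.5, 79.0 and 39.0 FPKM (log2 difference 2.66, standard error 0.67, adjusted p = 0.018; limma), a call not kept without P19d and P19f. Slc12a2, the cotransporter that drives fetal chloride secretion, read 66.1, 42.8, 106 and 71.2 and then 20.1, 22.8, 29.4, 33.9 and 33.9 (log2 difference -1.28, standard error 0.27, adjusted p = 0.00801; limma). Cftr, the chloride channel, was higher, 14.7, 8.75, 26.7 and 33.6 and then 97.1, 157, 119.7, 149.9 and 108. Its mean was 5.49 to 18.5 FPKM at the ages from P0.5 to P15, below that of E18.5 (30.15), and 127 at P19.

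Among the signaling pathways the calls fell on particular members. In Wnt 9 of 39 were lower and 5 higher (7 and 3 without P19d and P19f, 5 and 2 without E16.5-9, 0 and 1 against E18.5 alone, and 2 or 3 higher without any 1 of P19d, P19f, P23e, P23f and E18.5-4). The ligand gene Wnt7b of fetal epithelium read 5.40, 4.76, 1.77 and 3.07 and then 0.614, 0, 0.685, 0.078 and 0.268, the receptor gene Lgr4 fell by 1.68, the secreted inhibitor Wif1 by 1.82, and Nkd1, an inhibitor induced by the pathway, rose by 1.91. In Hedgehog 5 of 21 were lower and 3 higher (3 lower without E16.5-9, and 1 and 2 against E18.5 alone). The ligand gene Shh read 15.8, 15.4, 21.0 and 19.3 and then 0, 2.86, 4.53, 1.86 and 5.30 FPKM (log2 difference -2.51, standard error 0.51, adjusted p = 0.00645; limma), the antagonist Hhip fell by 1.96 and the factor Gli3 by 1.87, but Scube2, which releases the ligand, and Foxf1, a target in mesenchyme and endothelium, rose by 2.42 and 1.50. The call of Shh was not kept against E16.5 alone or E18.5 alone, nor that of Gli3 against E18.5 alone. In TGF-beta 9 of 28 were higher and 2 lower (5 higher without E16.5-9, and 5 and 1 against E18.5 alone), with the endothelial receptor genes Acvrl1 and Eng up by 2.83 and 2.19 and the ligand gene Tgfb2 down from 41.4, 58.3, 33.4 and 41.4 to 18.7, 20.0, 12.9, 13.9 and 21.3 FPKM.

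In BMP 4 of 22 were higher and 3 lower. The ligand gene Bmp6 read 1.86, 3.33, 0.676 and 4.81 and then 47.6, 35.2, 31.3, 24.5 and 17.6 FPKM (log2 difference 3.21, standard error 0.41, adjusted p = 5.4e-04; limma), and the inhibitory Smad6 rose by 2.61, while Id2, a target that holds back differentiation, fell by 1.85. In FGF 3 of 19 were higher and 3 lower: the ligand genes Fgf1 and Fgf2 rose by 1.41 and 2.55, and the epithelial receptor gene Fgfr2 fell by 0.93. In Notch 4 of 18 were higher, the ligands Dll1 and Dll4, the endothelial receptor Notch4 and the target Heyl (not called without P19d and P19f), and Dlk1 was the 1 lower gene. Of 16 retinoid genes 5 were higher and 2 lower, but 1 and 1 without P19d and P19f, and 1 to 3 were higher without P19f or any 1 of E16.5-9, E16.5-2 and E18.5-3. Aldh1a1, which makes retinoic acid, read 19.3, 26.4, 45.9 and 41.3 and then 186, 213, 295, 401 and 178 (log2 difference 2.91, standard error 0.31, adjusted p = 1.9e-04; limma), and Adh1, an alcohol dehydrogenase that oxidizes retinol, fell by 1.98. Of 38 lung transcription factors 7 were higher, among them Klf2 and Klf4 of endothelium by 2.32 and 2.10, and 8 lower, among them Sox9 and Foxp2 of the growing epithelium by 3.36 and 3.00.

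The 20 libraries between the groups show when the changes came, as a description of genes that the end groups chose. Of the 8623 coding genes counted above, P10a listed 416 at 0, the other P10 library 4, P7c 102 and P13.5c 112. The part of such zeros in the shares below was not tested. For 454 lower genes with a log2 difference of 2 or more and a fetal mean of 5 FPKM or more, predicted genes left aside, the median share of the log2 change reached was 41.3% at P0.5, 56.7% at P1, 27.4% at P4, 45.6% at P7 and 70.5% at P10. For 274 higher genes chosen alike it was 46.9% at P0.5, 53.5% at P2.5, 45.2% at P4, 69.5% at P10 and 86.8% at P15. Mitosis genes did not fall steadily: the median share was 86.2% at P1, 2.1% at P4, 9.3% at P5 and 56.6% at P10, so that at P4 their levels were back near the fetal mean. Imprinted genes stayed at 30.7% to 37.8% from P0.5 to P5 and reached 68.5% at P10 and 88.1% at P15. Glycolysis genes had reached 72.5% at P0.5 and 85.6% at P2.5, and pan-endothelial genes 60.6% and 69.2%. Interferon genes did not rise steadily. Their median share was 20.9% at P2.5, 65.9% at P5, 37.3% at P7, 76.7% at P10 and 63.2% at P13.5. It was 135.8% at P15, 85.1% at P19, 98.1% at P23 and 130.4% at P28. Of the lower genes 47.8% had passed 50% of their change by P10 and stayed past it, and of the higher genes 65.7%.

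**Figure D5:**
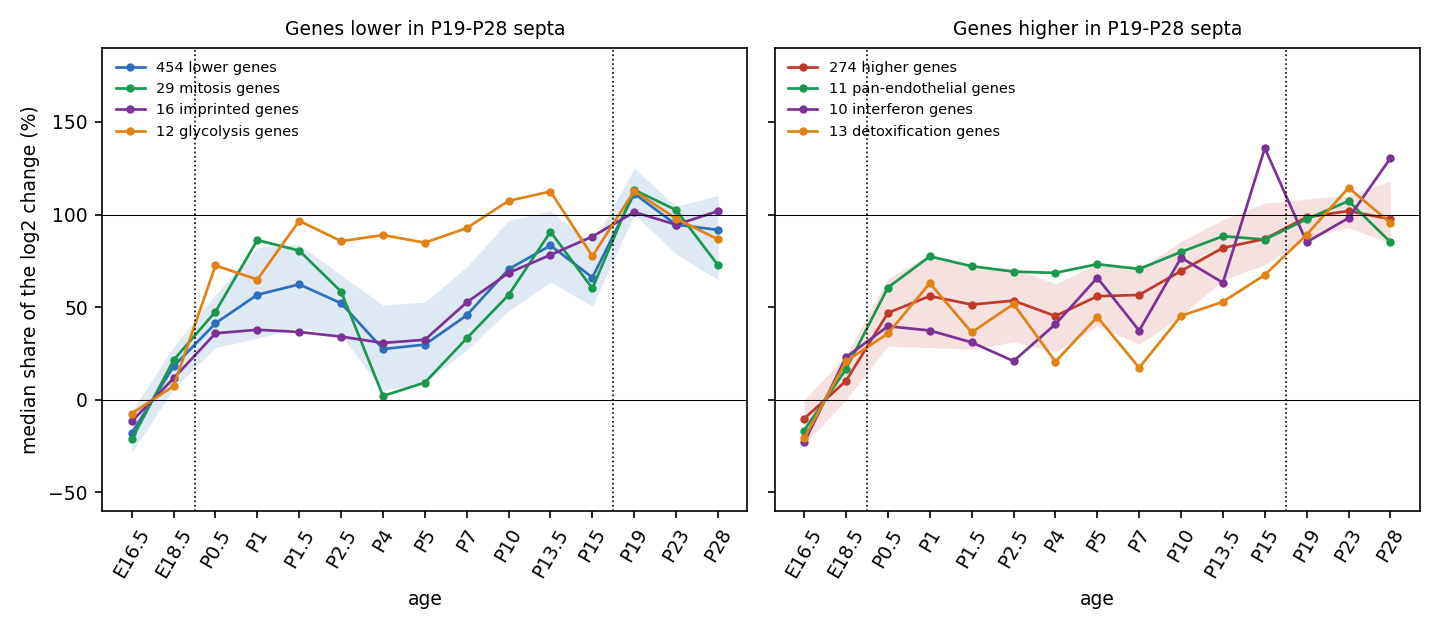
The y axis gives the median share of the log2 change between fetal (0%) and P19-P28 (100%) means reached at each age on the x axis, for genes lower (left) and higher (right) in P19-P28 septa; shading is the interquartile range of the 454 lower and 274 higher genes, and dotted lines bound the end groups. Mitosis genes return to 2.1% at P4 and glycolysis genes stay at 64.9% or above from P0.5.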

How the data were processed

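RNA from laser-captured alveolar septa of 29 wild-type C57BL/6 mice was sequenced after ribosomal RNA removal with a stranded total RNA kit. The authors aligned reads to mm10 with STAR 2.5.1 and deposited FPKM values made with Cufflinks 2.2.1, whose annotation and settings are not given in the sources used here. FPKM values were not whole multiples of a read's worth, so depth is unknown. Each library is 1 animal, so precision rests on the number of animals and the spread between them. The table held 24486 lines for 22779 gene IDs, of which 22718 had a symbol. Where an ID stood on several lines (1226 IDs), the one of greatest mean was used.

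FPKM values of 4 fetal and 5 P19-P28 libraries were compared as log2(FPKM + 1) with limma 3.58.1 (R 4.3.3, no covariate, variance trend on mean level) and Benjamini-Hochberg adjustment over 13515 genes at 1 FPKM or more in at least 3 of the 9 libraries. Tables and plots were made with Python 3.11.15, pandas 2.3.3 and matplotlib 3.10.9. On simulated data with the same group sizes, 17% of genes changed by 1 and 69% of genes changed by 2 on the log2 scale were recovered (100 genes each), with 7 false calls among 13515. Changed genes were drawn from those with a mean log2(FPKM + 1) above 2, and noise was normal around 1 mean per gene. Listed zeros and the split between E16.5 and E18.5 animals were not simulated, so the rates need not hold for genes with either. Alternatives were scaling, pseudocount, filter, weights, repeated lines, the fetal age used and leaving out each library. Only genes above 0 in all 9 libraries was an alternative chosen after seeing the data.

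Named genes were the 12 largest called increases and decreases with no overlap and a mean of at least 5 FPKM in the higher group, the switched genes, up to 5 called members of a list with the smallest p and any called member that went against the rest, fetal and mature family pairs, and cell type markers. Pcna, Arntl, Eln, Igf1r, Insr, Ube2c, Cd3g and some called members were named after their values were seen. Members and lists were chosen with earlier results of these data known. Promoter sequences came from RefSeq (GRCm38.p6) and matched 10680 of the genes tested by gene ID. Globin, immunoglobulin and most class I and II histocompatibility genes were not analysed here, and a few items are not reported here.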

Additional observations from a re-analysis of the deposited data

Results flagged for a closer look

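In these groups of 4 or 5 libraries, 1 stood far from the others for the genes below, by Dixon's criterion at the 95% level. Chance gives this in about 1 in 20 groups, but the number of groups screened is not given here. Where the other libraries had the same value or nearly so, any different value meets the criterion and that rate does not apply. This was so in the fetal group for Cd2, Gimap3, Cd79a, Ms4a1 and Chil3. In the P19-P28 group it was so for Agtr2, Col25a1, H2bc8, H2bc13, H3c1, H3c6, Hmga2 and Rtl1. Values are FPKM and no explanation was tested.

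In the P19-P28 group P28c stood high for the cell division genes Mki67 (82.32), Top2a (24.81), Cdk1 (2.016) and Uhrf1 (4.97). The same library was high for the antigen processing gene Tap1 (239.9) and the interferon-induced Gbp3 (69.88). It was also high for Scd1 (927.4), Col14a1 (16.01), Tgfbi (26.31), Pou5f1 (61.87) and H2bc13 (0.6509). P19d stood apart for Cd79a (20.04), Dll1 (24.34), Ccnb1 (3.239) and, at the low end, Hopx (42.77), and P19f, at the low end, for Fgf2 (4.849). P23e was low for Aqp5 (45.99) and high for Ube2c (1.611), H3c6 (1.195) and Col25a1 (0.1284). P23f was high for Fmo1 (255.2) and, with the others listed at 0 or nearly so, for Agtr2 (0.6503), H2bc8 (0.5616), H3c1 (0.4799), Rtl1 (0.4365) and Hmga2 (0.1861).

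In the fetal group E16.5-2 was high for Cd3g (47.78), Tap1 (17.36) and Cd79a (1.718). E16.5-9 was apart for H2bc22 (15.87), Cd2 (1.034) and Gimap3 (0.3733), E18.5-4 for Ms4a1 (0.8045) and Chil3 (0.8364), and E18.5-3 for Meg3 (126.2).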

How the results depend on the processing

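No paired analysis was possible because the fetal and P19-P28 animals share no labelled animal, litter or batch. Against 1174 higher and 1483 lower genes, E18.5 alone gave 450 and 303, all 29 libraries in 15 ages 1850 and 2633, all 29 in 5 age groups 1774 and 2498, and genes above 0 in all 9 libraries, with fewer genes tested, 1059 and 917. Leaving out 1 library gave 735 to 1175 higher and 769 to 1424 lower genes. Against 16 genes switched off and 4 on, limits of 10 and 1 FPKM gave 9 and 1, limits of 5 and 0.5 gave 11 and 2, E18.5 alone gave 28 and 13, and leaving out P19d and P19f gave 23 and 13. Leaving out 1 library gave 17 to 27 off and 4 to 8 on. The cause was not tested, apart from the number of genes and libraries that each alternative sets.

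E16.5 alone (1039 and 1010), a pseudocount of 0.1 (1097 and 1244), a filter at 5 FPKM (1165 and 1271), no filter (1033 and 1337), median ratio scaling (1206 and 1398), quantile normalization (1510 and 1271) and library weights (1579 and 1895) stayed within 1.5 times. None of the 2487 called genes also tested against E16.5 alone, or of the 2483 against E18.5 alone, changed sign. Both fits reuse libraries that made the calls, so this is no separate support for them. Of 164 called genes named, 154 kept their call without P19d and P19f, 107 against E18.5 alone, 152 without E16.5-9 and 163 under quantile normalization. Against E18.5 alone 38 were tested and not called, and the others were not tested because they missed the filter there. Many of the named genes were picked for a small p or a large difference. Over all calls, 824 of 1174 higher and 979 of 1483 lower genes were kept without P19d and P19f. Genes that were not called turned: Eln to 0.41 against E16.5 alone, which is also the comparison without the libraries against their labelled sex, and to 0.01 and 0.14 without P23f and E18.5-3 (range without any 1 library, -0.36 to 0.14), Hopx to -0.24 and Ccnd2 to 0.21 against E18.5 alone.

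Depth is unknown, so a listed 0 cannot be read as absence. The age groups hold 1 or 2 animals each, and the E16.5 and E18.5 animals differed enough that their mean rests on both.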

Other observations

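Pou5f1, a stem cell transcription factor gene, read 0.523, 0.415, 0 and 0 FPKM in the fetal libraries and 2.30, 8.72, 11.0, 10.5 and 61.9 in P19d, P19f, P23e, P23f and P28c (log2 difference 3.34, adjusted p = 0.0071; limma). It has near-identical pseudogenes to which reads could belong, so the gene itself is uncertain.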
